A study of Mus musculus with 16 samples.

Results

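The 10 genes described here encode kinases and regulators of the mitotic spindle: the spindle checkpoint proteins Ttk, Bub1, Bub1b and Mad2l1, the checkpoint's target Cdc20, the Aurora kinases Aurka and Aurkb with their partners Tpx2 and Birc5, and the kinase Plk1. They were chosen by gene symbol, as the probe sets whose platform annotation gave 1 of these symbols and no other gene. This gave 15 probe sets of 22626, and the probe set with the highest mean signal stood for each gene. The 10 genes were among 12393 genes named on the array, and all 10 were among the 7619 genes bright enough to be tested. Levels are the authors' linear array signals, and changes are differences of log2(signal + 16). A positive change means higher in the group named first.

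The study asked which genes depend on Tlx (Nr2e1), an orphan nuclear receptor of neural stem cells. RNA of cultured adult mouse neural stem cells was hybridised to 16 Affymetrix arrays, 2 for each of 8 groups. The groups were Tlx(f/Z;CreER) cultures taken 60 h or 36 h after 4OH-TM (4-hydroxytamoxifen) or after vehicle, and Tlx(f/Z) cultures taken 60 h or 36 h after 4OH-TM or after vehicle. All groups thus carried the Tlx(f/Z) genotype, and the Tlx(f/Z) cultures, called no-Cre cultures below, lacked CreER, a Cre recombinase that 4OH-TM activates. The labels do not say which promoter drives CreER. The replicates are described as biological but not tied to separate animals, so the tests weigh differences against the spread of these samples alone. The platform annotation gave 0 probe sets the symbol Nr2e1, so the deletion itself was not checked here.

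The spindle checkpoint delays anaphase until every chromosome is attached to the spindle. Kinetochores without microtubules recruit the kinases Ttk and Bub1, and a complex of Bub1b, Mad2l1 and Bub3 then holds Cdc20, the activator of the anaphase promoting complex, in check. Aurka and Plk1 act at spindle poles and in mitotic entry, and Aurkb, with Birc5 in the chromosomal passenger complex, corrects faulty attachments. The RNAs of these genes are made mainly in G2 and mitosis, so their level in a culture depends on how many cells divide, and fewer dividing cells and less RNA per dividing cell cannot be told apart in these bulk samples.

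Genes of G2 and mitosis often carry CCAAT boxes, bound by the factor NF-Y, and a cell-cycle homology region (CHR), bound by MuvB complexes with B-Myb or DREAM partners. RefSeq promoter windows of build GRCm38.p6, from 250 bases before to 50 bases after the start site, were at hand for 8 of the 10 genes, Aurkb and Tpx2 being the others. The letters TTTGAA (CHR) on either strand stood in 5 of 8 windows, against 17.9% of 32851 windows of all genes, and CCAAT on either strand stood in 6 of 8, against 37.4%. Both motifs stood in 5 of 8 windows (Ttk, Bub1b, Aurka, Plk1 and Cdc20), against 6.95% of all windows, and the 2 motifs share no overlapping letters. At least 2 CCAAT boxes stood in 4 of 8 windows (Ttk, Bub1, Aurka and Cdc20), against 11.7%. The windows of Mad2l1 and Birc5 held neither string, which says only that these letters are absent there. The 4 windows below are shown 5′ to 3′ because they belong to the genes with the largest (Ttk, Bub1) and smallest (Plk1) response to 4OH-TM and to the gene whose change with time differed by genotype (Aurka). Capitals mark the motifs, and a match on the other strand reads TTCAAA or ATTGG.
Ttk, chr9:83834439-83834738, plus strand: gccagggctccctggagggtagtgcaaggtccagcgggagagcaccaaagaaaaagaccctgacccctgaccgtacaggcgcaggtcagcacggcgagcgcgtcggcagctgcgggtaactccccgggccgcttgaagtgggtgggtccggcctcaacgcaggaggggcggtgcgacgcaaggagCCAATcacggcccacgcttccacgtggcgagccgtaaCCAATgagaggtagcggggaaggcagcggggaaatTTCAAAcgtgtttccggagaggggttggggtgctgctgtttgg
Bub1, chr2:127831810-127832109, minus strand: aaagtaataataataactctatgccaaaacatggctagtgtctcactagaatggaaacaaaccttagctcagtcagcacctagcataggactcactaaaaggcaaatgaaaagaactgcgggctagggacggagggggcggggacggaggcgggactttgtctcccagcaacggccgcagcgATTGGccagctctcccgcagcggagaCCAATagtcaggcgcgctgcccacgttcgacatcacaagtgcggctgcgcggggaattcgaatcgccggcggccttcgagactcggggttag
Aurka, chr2:172370521-172370820, minus strand: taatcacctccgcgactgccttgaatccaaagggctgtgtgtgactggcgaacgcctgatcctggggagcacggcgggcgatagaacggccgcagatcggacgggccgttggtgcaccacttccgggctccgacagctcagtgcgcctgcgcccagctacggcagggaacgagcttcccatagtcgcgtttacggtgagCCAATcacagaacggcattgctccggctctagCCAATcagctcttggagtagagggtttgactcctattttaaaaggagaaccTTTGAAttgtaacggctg
Plk1, chr7:122159185-122159484, plus strand: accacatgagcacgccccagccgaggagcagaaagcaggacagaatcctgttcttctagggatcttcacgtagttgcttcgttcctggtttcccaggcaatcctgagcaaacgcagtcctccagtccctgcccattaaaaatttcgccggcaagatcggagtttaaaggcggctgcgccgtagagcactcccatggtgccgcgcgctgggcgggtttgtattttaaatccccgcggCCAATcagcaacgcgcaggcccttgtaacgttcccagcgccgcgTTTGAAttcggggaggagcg
Counted from the start site, whose first transcribed base is 1, the Ttk window held CCAAT at -65 and -28 and the CHR on the other strand at 8. The Aurka window held CCAAT at -51 and -19 and the CHR at 33, and the Plk1 window held CCAAT at -14 and the CHR at 31. The Bub1 window held CCAAT at -42 and, on the other strand, at -68, and no TTTGAA. The windows of Ttk, with the largest response, and of Plk1, with the smallest, thus both held the 2 motifs, and a match is a description, not a binding site.

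The median signal of the arrays ran from 92.2 to 132.6, a 1.44-fold range, and the arrays were not rescaled. Some counts below change with rescaling, and both are then given. Of 11 neural stem and progenitor markers on the array, 9 passed the filter, among them Nes, Sox2, Vim and Fabp7, while Hes5 and Prom1 did not. Of 6 astrocyte markers 4 passed: Aldoc at 3002 to 5032 and S100b at 174 to 627 over the arrays, and the dimmer Aldh1l1 and Gja1, while Gfap and Aqp4 did not. Of 5 oligodendrocyte lineage markers on the array 3 passed: Olig2 at 2648 to 4095, Cspg4 at 109 to 327 and the dim Sox10, while Pdgfra and Mbp did not. Of 5 microglia markers 1 passed (Csf1r), and of 5 endothelial and mural and 4 fibroblast markers 0 passed. Of 6 neuron markers 2 passed (Map2 and Syt1; Tubb3, Dcx and Rbfox3 were among those that did not), and the summed signal of the 6, most of it Map2, was 973 to 1488 in CreER 4OH-TM and 1449 to 1668 in CreER vehicle cultures at 60 h, and 1285 to 1391 against 1554 to 1755 at 36 h. In no-Cre cultures this sum was also lower under 4OH-TM, at 1558 to 1832 against 1913 to 2149 under vehicle at 60 h. At 36 h it was 2018 to 2080 against 2184 to 2238. The part of this sum in the results below was not tested.

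In CreER cultures, 9 of the 10 spindle genes fell under 4OH-TM over both times, and the exception was Plk1. The median change of the 10 genes was -0.53 on the log2 scale, between -0.90 (Ttk) and -0.25 (Plk1), while the median of all genes tested was -0.07. Of all genes tested, 8.36% were lower and 4.00% higher (limma, Benjamini-Hochberg adjusted p below 0.05). Quantile normalization and median scaling each called 9 of 10 genes lower, against 19.1% of all genes under each. The lowest group mean of all 10 genes was that of CreER cultures 60 h after 4OH-TM. As deposited, the highest was that of vehicle cultures at 36 h, with CreER for 4 genes and without Cre for 6. After quantile normalization or median scaling, it was that of CreER vehicle cultures at 36 h for every gene but Ttk. For Ttk it was then that of no-Cre 4OH-TM cultures at 36 h. As deposited, the ratio of the highest to the lowest group mean ran from 1.68 (Plk1) to 4.35 (Ttk), with 3.27 for Bub1 and 2.91 for Aurkb. Between 4 and 6 of the 7 neighbouring pairs of groups in each gene's order overlapped in their arrays, so the middle of the order is not resolved.

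**Figure D1:**
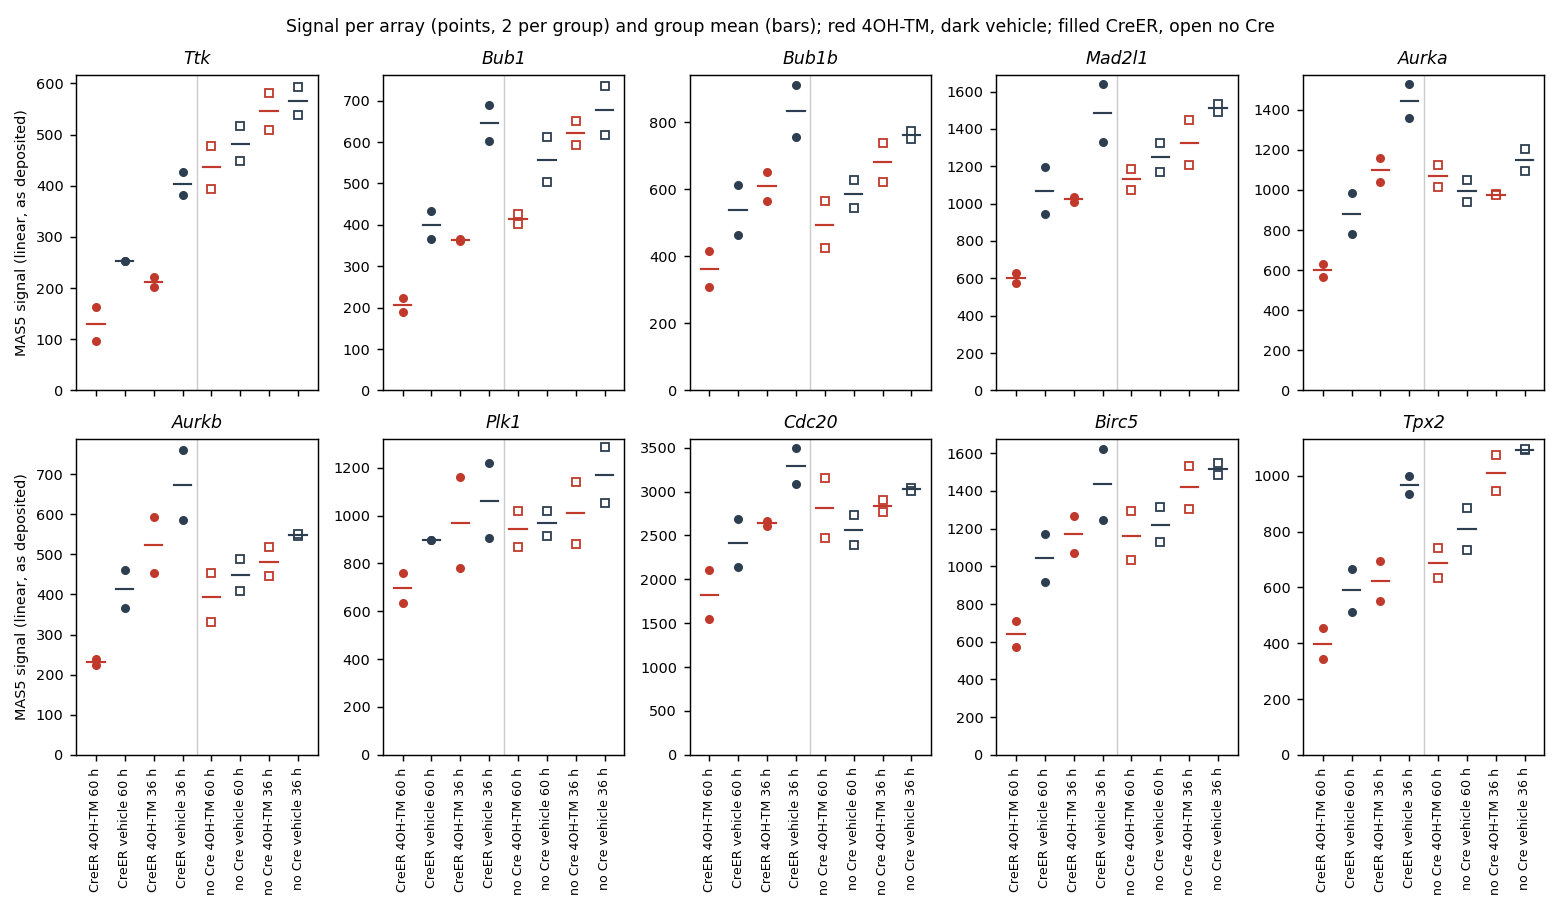
Signal of each of the 10 genes (linear, as deposited) in the 16 arrays, with 1 panel per gene, 2 points per group and a bar at the group mean. The CreER 4OH-TM 60 h group had the lowest mean in every panel, and Ttk showed the largest range between group means (4.35-fold).

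Ttk, the kinase that starts checkpoint signalling at unattached kinetochores, showed the largest response. Its signal was 96.8 and 163 in CreER 4OH-TM and 253 and 252 in CreER vehicle cultures at 60 h, and 202 and 223 against 427 and 381 at 36 h. The no-Cre arrays gave 477 and 394 under 4OH-TM and 448 and 516 under vehicle at 60 h, and 582 and 508 against 538 and 593 at 36 h. The CreER arrays did not overlap between treatments at either time, and the no-Cre arrays overlapped at both. Every no-Cre array lay above every CreER vehicle array, except that the array at 394 was below the one at 427. Ttk fell by 0.90 ± 0.13 (SE) over both times in CreER cultures (limma adjusted p = 5.25e-09).

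Bub1, the kinetochore kinase that helps recruit the passenger complex and checkpoint proteins to centromeres, had signals of 189 and 224 in CreER 4OH-TM and 434 and 366 in CreER vehicle cultures at 60 h, and 367 and 361 against 603 and 688 at 36 h. Without Cre it measured 427 and 402 under 4OH-TM and 503 and 612 under vehicle at 60 h, and 651 and 593 against 617 and 736 at 36 h. Treated arrays were below vehicle arrays at both times with CreER, and at 60 h without Cre. Bub1 fell by 0.85 ± 0.13 (SE) over both times in CreER cultures (limma adjusted p = 3.90e-08), against a change of -0.26 ± 0.13 without Cre that did not pass (adjusted p = 0.9999). In a fit of every probe set, the second Bub1 probe set, dimmer than the filter with a mean signal of 37.3, changed by -0.46 in CreER cultures (adjusted p = 0.335), against an adjusted p of 0.000714 for the brightest.

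Bub1b, the BubR1 protein of the mitotic checkpoint complex, measured 308 and 415 in CreER 4OH-TM and 612 and 463 in CreER vehicle cultures at 60 h, and 566 and 651 against 756 and 912 at 36 h. Mad2l1, the Mad2 protein that binds Cdc20, measured 577 and 627 against 1198 and 942 at 60 h, and 1010.0 and 1038 against 1331 and 1638 at 36 h. Neither gene's treated and vehicle arrays overlapped at either time in these CreER cultures. Bub1b fell by 0.50 ± 0.13 (SE; limma adjusted p = 0.00375) and Mad2l1 by 0.66 ± 0.13 (SE; adjusted p = 1.85e-05). Without Cre, Bub1b measured 564 and 425 under 4OH-TM and 545 and 627 under vehicle at 60 h, and 739 and 621 against 773 and 749 at 36 h. Mad2l1 measured 1188 and 1075 against 1168 and 1327 at 60 h, and 1447 and 1207 against 1492 and 1534 at 36 h. The no-Cre arrays of both genes thus overlapped between treatments at 60 h. At 36 h they stood below vehicle, as did those of 52.2% of all genes.

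Cdc20, which the checkpoint inhibits and which in turn activates the anaphase promoting complex, measured 1548 and 2102 in CreER 4OH-TM and 2687 and 2136 in CreER vehicle cultures at 60 h, and 2612 and 2667 against 3089.9 and 3501 at 36 h. The arrays did not overlap at either time, although at 60 h the values of 2102 and 2136 nearly met. Without Cre the values were 3149.5 and 2473 under 4OH-TM and 2388 and 2738 under vehicle at 60 h, and 2908 and 2766 against 3039 and 3009.5 at 36 h. Cdc20 fell by 0.36 ± 0.11 (SE) in CreER cultures (limma adjusted p = 0.0193). In a fit of every probe set, with another spread estimate and more features, the same Cdc20 probe set did not pass (-0.36, adjusted p = 0.11). Its unadjusted limma p was 0.0078 in that fit, against 0.0017 in the main one. The second probe set, nearly as bright, changed by -0.27 there (adjusted p = 0.30) and the third, dimmer one by -0.05 (adjusted p = 0.94).

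Aurkb, the kinase of the chromosomal passenger complex, measured 224 and 238 in CreER 4OH-TM and 461 and 365 in CreER vehicle cultures at 60 h, and 454 and 592 against 586 and 761 at 36 h. Birc5 (survivin), which anchors that complex at centromeres, measured 575 and 709 against 1172 and 918 at 60 h, and 1071 and 1269.8 against 1247 and 1624 at 36 h. For both genes the treated arrays lay below the vehicle arrays at 60 h and overlapped them at 36 h. Aurkb fell by 0.57 ± 0.13 (SE; limma adjusted p = 0.000609) and Birc5 by 0.49 ± 0.13 (SE; adjusted p = 0.00336) over both times. Without Cre, Aurkb measured 454 and 332 under 4OH-TM and 409 and 489 under vehicle at 60 h, and 518 and 445 against 546 and 551 at 36 h. Birc5 measured 1292 and 1033 against 1128 and 1313 at 60 h, and 1534 and 1306 against 1547 and 1484 at 36 h. These no-Cre arrays overlapped between treatments, except for Aurkb at 36 h, where those of 52.2% of all genes stood below vehicle. The dimmer second probe set of Aurkb changed by -0.59 in CreER cultures (adjusted p = 0.081 in the fit of every probe set, against 0.0254 for the brightest).

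Aurka, the kinase of the spindle poles, measured 566 and 631 in CreER 4OH-TM and 986 and 779 in CreER vehicle cultures at 60 h, and 1038 and 1161 against 1360.1 and 1528 at 36 h. Tpx2, the microtubule protein that activates Aurka, measured 342 and 453 against 667 and 513 at 60 h, and 551 and 696 against 934 and 999 at 36 h. Both genes had treated arrays below vehicle arrays at both times. Aurka fell by 0.46 ± 0.13 (SE; limma adjusted p = 0.00627) and Tpx2 by 0.59 ± 0.13 (SE; adjusted p = 0.00032), and the second Tpx2 probe set changed by -0.56 (adjusted p = 0.024 in the fit of every probe set, against 0.0131 for the brightest). Without Cre, Aurka measured 1122.5 and 1017 under 4OH-TM and 939.8 and 1051 under vehicle at 60 h, and 977 and 974 against 1096 and 1204 at 36 h. Tpx2 measured 742 and 632 against 735 and 885 at 60 h, and 1073 and 947 against 1093 and 1094 at 36 h. The no-Cre arrays of both genes overlapped at 60 h and stood below vehicle at 36 h, as did those of 52.2% of all genes.

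Plk1, which drives centrosome maturation, mitotic entry and cytokinesis, was the member that did not pass. It measured 635 and 759 in CreER 4OH-TM and 897 and 898 in CreER vehicle cultures at 60 h, and 781 and 1159.7 against 907 and 1218 at 36 h. Its arrays stood apart at 60 h and overlapped at 36 h, where the 2 arrays of each group lay far from each other. Its change over both times was -0.25 ± 0.13 (SE), with a 95% interval of -0.51 to 0.01 (limma adjusted p = 0.21). The no-Cre arrays gave 1020.4 and 870.0 under 4OH-TM and 916 and 1021 under vehicle at 60 h, and 1142 and 882 against 1287 and 1053 at 36 h.

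At 60 h, all 10 genes had both CreER 4OH-TM arrays below both CreER vehicle arrays, as did 24.4% of all genes tested, and 8 of 10 passed the test, against 4.63% of all genes called lower. The median change was -0.62, or -0.52 relative to the median of all genes, with Ttk at -0.92 ± 0.19 (SE; limma adjusted p = 0.000135), Bub1 at -0.90 ± 0.19 (adjusted p = 0.000166) and Mad2l1 at -0.80 ± 0.18 (adjusted p = 0.000726). Plk1 (-0.36, adjusted p = 0.25) and Cdc20 (-0.41, adjusted p = 0.11) did not pass, and Bub1b, Aurka and Tpx2 passed narrowly (adjusted p = 0.0487 to 0.0497). The count was 2 when CreER vehicle 60 h replicate 1 was left out and 3 when CreER 4OH-TM 60 h replicate 1 was. It was 5 without either CreER 4OH-TM 36 h array, either no-Cre vehicle 36 h array, either no-Cre vehicle 60 h array or either no-Cre 4OH-TM 36 h array.

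At 36 h, 3 of 10 genes passed, against 1.50% of all genes called lower: Ttk changed by -0.88 ± 0.19 (SE; limma adjusted p = 0.00106), Bub1 by -0.80 ± 0.19 (adjusted p = 0.00407) and Tpx2 by -0.63 ± 0.19 (adjusted p = 0.0368). The median was -0.41, and 7 of 10 genes had treated arrays below vehicle arrays, against 27.6% of all genes. At both times the arrays stood apart in this direction for 7 of 10 genes (Ttk, Bub1, Bub1b, Mad2l1, Cdc20, Aurka and Tpx2), against 13.0% of all genes. After quantile normalization or median scaling of the arrays 9 of 10 genes passed at 36 h under each, where 11.7% and 14.5% of all genes were called lower. As deposited, the count was 0 without CreER 4OH-TM 36 h replicate 1 and 1 without CreER 4OH-TM 36 h replicate 2 or either CreER vehicle 36 h array, and the count over both times was 5 of 10 without CreER 4OH-TM 36 h replicate 1.

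The response at 60 h was not shown to differ from that at 36 h. The difference of the 2 responses was tested for each gene, and 0 of 10 passed in limma, 0 of 10 had an unadjusted p below 0.05, and 0.105% of all genes were called lower. Aurkb had the most negative difference, -0.43, with a 95% interval of -0.96 to 0.10, and Birc5 followed at -0.40 (-0.91 to 0.10). Ttk had -0.04 (-0.56 to 0.49).

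In no-Cre cultures, 4OH-TM moved 0 of the 10 genes past the limma threshold, 0 of 10 had an unadjusted p below 0.05, and 0.0525% of all genes were called lower. The median change was -0.14, against -0.06 for all genes, between -0.26 (Bub1) and 0.02 (Cdc20). At 60 h only Bub1 had treated arrays below vehicle arrays, against 7.98% of all genes. At 36 h 6 of 10 genes did, against 52.2% of all genes, and 0 of 10 did at both times, against 3.06%. After quantile normalization, the 36 h no-Cre arrays of Aurka, Aurkb, Bub1b, Cdc20 and Mad2l1 overlapped between treatments. Those of Tpx2 then lay above vehicle, at 960 and 957 against 952 and 928. After median scaling, only Aurka kept its treated arrays below vehicle at 36 h.

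The response of CreER cultures was then set against that of no-Cre cultures. Ttk fell further with CreER, by 0.80 ± 0.19 (SE; limma adjusted p = 0.00316), and it was the 1 gene of 10 that passed, against 0.814% of all genes called lower. Bub1 (-0.59, adjusted p = 0.0715) and Mad2l1 (-0.50, adjusted p = 0.16) did not pass, and the median difference was -0.40 against -0.02 for all genes. An unadjusted p below 0.05 was found for 8 of 10 genes, and the share of all genes at that threshold is not given here. With the arrays scaled, 9 of 10 genes passed under quantile normalization and 9 of 10 under median scaling, where 10.2% and 10.1% of all genes were called lower, and Plk1 was the exception in each. Under quantile normalization the differences were -0.80 for Ttk (adjusted p = 0.000866), -0.56 for Bub1 (adjusted p = 0.000232) and -0.10 for Plk1 (adjusted p = 0.67). As deposited, the count was 2 when CreER 4OH-TM 60 h replicate 2 was left out and 3 when CreER vehicle 60 h replicate 2 was.

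**Figure D2:**
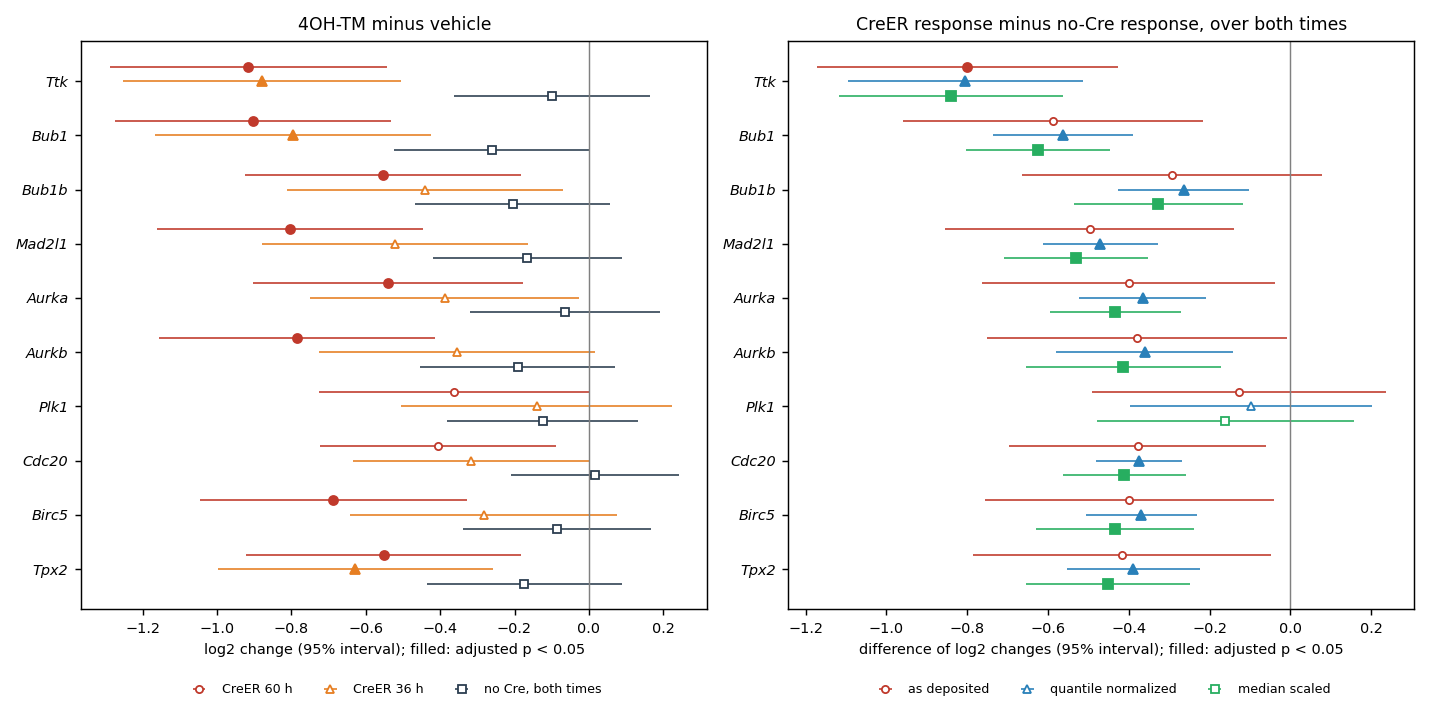
Left: log2 change, 4OH-TM minus vehicle, with 95% intervals for CreER cultures at 60 h and 36 h and for no-Cre cultures over both times. Right: the CreER response minus the no-Cre response under 3 scalings; filled points passed (adjusted p below 0.05), 1 gene as deposited and 9 genes after quantile normalization or median scaling.

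Time was the other factor of the design. Over the 4 conditions of genotype and treatment together, 10 of 10 genes were lower at 60 h than at 36 h, against 8.16% of all genes called lower. The median change was -0.47, against -0.08 for all genes, with Aurkb at -0.59 ± 0.09 (SE; limma adjusted p = 8.38e-08), Tpx2 at -0.58 ± 0.09 (adjusted p = 1.41e-07) and Bub1 at -0.57 ± 0.09 (adjusted p = 2.68e-07). Plk1 changed least, by -0.26 ± 0.09 (adjusted p = 0.0496). Quantile normalization called 9 of 10 genes lower, against 18.4% of all genes, and median scaling 10, against 38.3%.

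The time comparison moved with a measure of RNA integrity. For the actin control probes, the 5′ signal divided by the 3′ signal was 0.841 and 0.720 at 60 h against 0.825 and 0.789 at 36 h in CreER 4OH-TM cultures, and 0.882 and 0.862 against 0.773 and 0.716 in CreER vehicle cultures. It was 0.850 and 0.891 at 60 h against 0.548 and 0.647 at 36 h in no-Cre 4OH-TM cultures, and 0.788 and 0.773 against 0.593 and 0.666 in no-Cre vehicle cultures. With this ratio as a covariate, 0 of 10 genes and 0.0525% of all genes were called lower over the 4 conditions. The members' median change was then -0.21 and that of all genes 0.14, so the members lay at -0.35 relative to all genes, against -0.40 as deposited. Within CreER 4OH-TM cultures, whose ratios overlapped between times, 10 of 10 genes passed with it, against 4.06% of all genes called lower.

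Within CreER cultures given 4OH-TM, all 10 genes had both 60 h arrays below both 36 h arrays, as did 26.5% of all genes, and 9 of 10 passed, against 1.97% called lower. Aurkb changed most, by -1.11 ± 0.19 (SE; limma adjusted p = 2.21e-06), followed by Aurka at -0.86 ± 0.18 (adjusted p = 0.000685) and Birc5 at -0.85 ± 0.18 (adjusted p = 0.000641). Plk1 changed by -0.45 ± 0.19 and did not pass (adjusted p = 0.22). The count was 1 without CreER 4OH-TM 36 h replicate 2, 3 without its replicate 1 and 2 without CreER 4OH-TM 60 h replicate 1.

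Within CreER vehicle cultures, all 10 genes again had both 60 h arrays below both 36 h arrays, against 11.1% of all genes, and 4 of 10 passed, against 0.774% called lower. These were Aurka at -0.71 ± 0.18 (SE; limma adjusted p = 0.0153), Tpx2 at -0.71 ± 0.19 (adjusted p = 0.0181), Aurkb at -0.68 ± 0.19 (adjusted p = 0.0274) and Bub1 at -0.67 ± 0.19 (adjusted p = 0.0326), and Ttk just missed with -0.64 (adjusted p = 0.052). After quantile normalization or median scaling 9 of 10 passed under each, where 6.44% and 12.1% of all genes were called lower, and with the actin ratio as a covariate 0 did, against 0.144% of all genes. As deposited, the count was 0 without CreER vehicle 36 h replicate 2 or CreER vehicle 60 h replicate 2, 1 without CreER vehicle 36 h replicate 1, and 2 without either CreER 4OH-TM 36 h array or no-Cre vehicle 36 h replicate 2.

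Without Cre, 0 of 10 genes passed in limma under 4OH-TM, where 0.591% of all genes were called lower. An unadjusted limma p below 0.05 was found for 3, a threshold at which the share of all genes is not given. The most negative changes were those of Bub1 (-0.57, adjusted p = 0.0629) and Tpx2 (-0.55, adjusted p = 0.0758), while Aurka changed by 0.13, and 6 of 10 genes had 60 h arrays below 36 h arrays, against 19.1% of all genes. After quantile normalization 6 of 10 were called lower, against 14.8% of all genes, and after median scaling 7, against 26.2%. As deposited 2 were without any 1 of the CreER vehicle or CreER 4OH-TM 60 h arrays. Under vehicle 0 of 10 passed in limma, and 0.0656% of all genes were called lower. At the unadjusted threshold there were 2, again without the share of all genes. All 10 had 60 h arrays below 36 h arrays there, against 61.2% of all genes, and 85.9% of all genes had a change below 0. The members' median of -0.28 was -0.07 relative to the median of all genes.

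**Figure D3:**
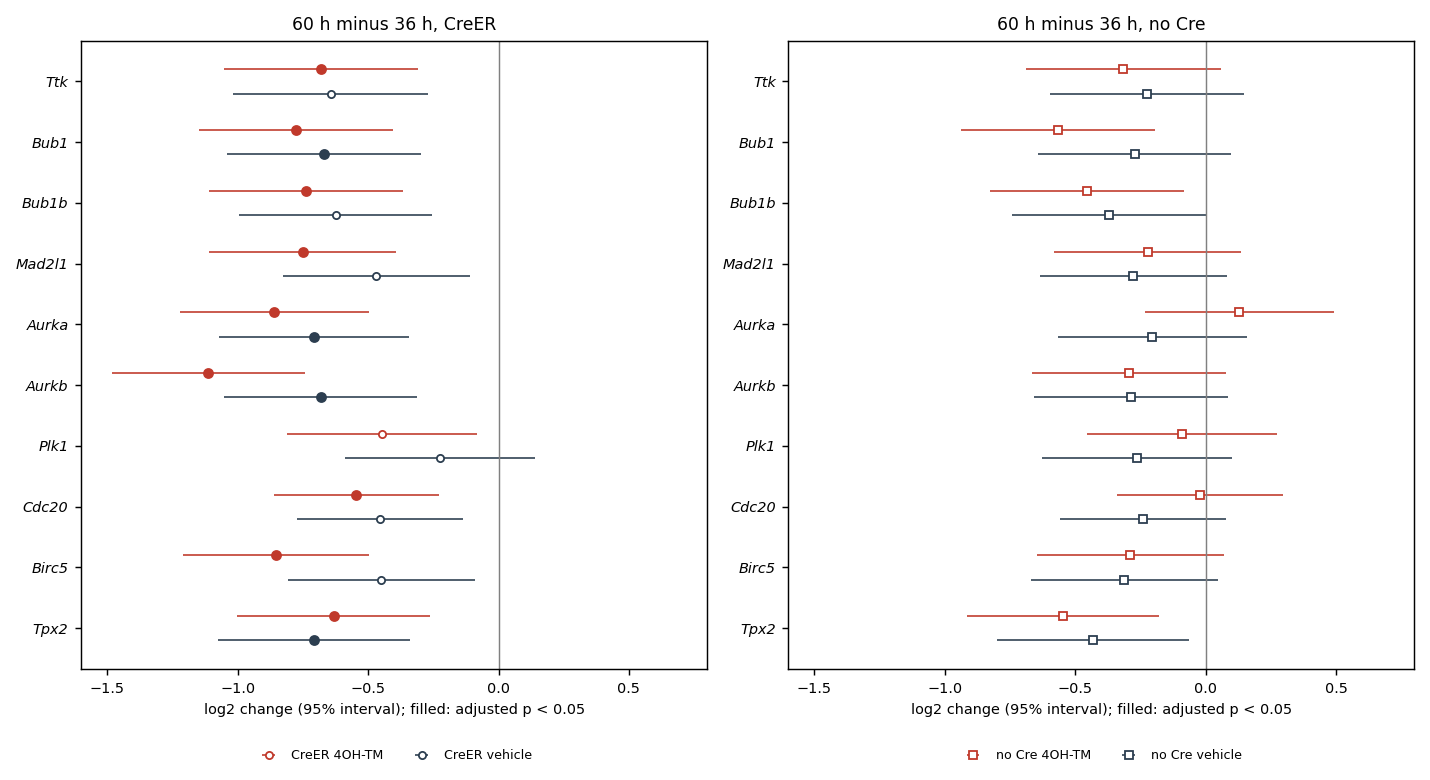
Log2 change, 60 h minus 36 h, with 95% intervals, in CreER cultures (left) and no-Cre cultures (right), under 4OH-TM and vehicle. Filled points passed (adjusted p below 0.05): 9 genes in CreER 4OH-TM cultures, 4 in CreER vehicle cultures and 0 in no-Cre cultures.

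The change with time was compared between genotypes, over both treatments, in a comparison added after these values were seen. It passed for 1 of 10 genes, Aurka, against 1.27% of all genes called lower. An unadjusted limma p below 0.05 was found for 4 others, a threshold at which the share of all genes is not given. The Aurka difference, CreER minus no Cre, was -0.75 ± 0.18 (SE; limma adjusted p = 0.00633). Its signals averaged 740.4 ± 186 at 60 h and 1272 ± 216 at 36 h in CreER cultures, against 1033 ± 75.9 at 60 h and 1063 ± 110 at 36 h in no-Cre cultures (SD, n = 4 each). Aurkb had a difference of -0.61 ± 0.19 that did not pass (adjusted p = 0.0565). Quantile normalization called 8 of 10 genes lower, against 8.53% of all genes, and median scaling 6, against 5.07%, Aurka in each. With the actin ratio as a covariate 0 passed, against 0.315% of all genes. As deposited, the count was 0 without CreER 4OH-TM 36 h replicate 2 or no-Cre vehicle 36 h replicate 1, and 2 without CreER vehicle 36 h replicate 1, CreER vehicle 60 h replicate 1, CreER 4OH-TM 60 h replicate 2 or no-Cre 4OH-TM 60 h replicate 2.

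Under vehicle alone, CreER and no-Cre cultures were compared over both times. Ttk was lower with CreER, at 328 ± 89.5 against 524 ± 59.8 (SD, n = 4 each), a change of -0.68 ± 0.13 (SE; limma adjusted p = 4.76e-06) or -0.55 relative to the median of all genes, and it was the only gene of 10 that passed. As many as 26.6% of all genes were called lower in this comparison. The other 9 lay between -0.31 (Tpx2, adjusted p = 0.0524) and 0.08 (Aurkb). Quantile normalization called Ttk (-0.50) and Tpx2 (-0.15) lower and Aurka (0.23), Aurkb (0.26), Bub1b (0.17) and Cdc20 (0.12) higher, and median scaling called Ttk lower and Aurka, Aurkb and Cdc20 higher, where 26.1% and 23.4% of all genes were called lower and 29.2% and 28.7% higher. With the actin ratio as a covariate 0 passed, against 8.40% of all genes, with Ttk at -0.44 (adjusted p = 0.0658). As deposited, the count was 2 without CreER vehicle 60 h replicate 1, no-Cre vehicle 60 h replicate 1, either CreER 4OH-TM 60 h array or either no-Cre 4OH-TM 60 h array. These comparisons share arrays: the vehicle arrays of CreER cultures stand in the 4OH-TM, the time and this comparison.

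The other genes of the pathway were grouped into 7 lists by role, with 76 genes named and 63 tested. In CreER cultures over both times 33 of 63 fell under 4OH-TM and 0 rose, against 8.36% and 4.00% of all genes, with a median of -0.41. The numbers were 25 lower at 60 h, against 4.63% of all genes, and 12 at 36 h, against 1.50%. Without Cre 0 were lower, against 0.0525% of all genes, and 2 had an unadjusted p below 0.05. For the difference between genotypes 6 were lower, against 0.814% of all genes, and 30 had an unadjusted p below 0.05. The share of all genes at that unadjusted threshold is not given here, so no excess can be read from these counts. At 60 h against 36 h over the 4 conditions, 32 of 63 were lower and 0 higher, against 8.16% and 3.61% of all genes.

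Among checkpoint partners 3 of 8 fell, with a list median of -0.17: Zwilch (-0.78), a subunit of the RZZ complex, Spdl1 (-0.72), which brings dynein to kinetochores, and Trip13 (-0.66), the ATPase that remodels Mad2. The outer kinetochore, which binds microtubules, had 7 of 8 lower with a median of -0.65, including Cenpf (-0.79) and the Ndc80 complex subunits Ndc80 (-0.79) and Nuf2 (-0.72). Passenger complex and cohesion genes were lower in 4 of 4, with a median of -0.66: Incenp (-0.67), the scaffold that activates Aurkb, Cdca5 (-0.64), which stabilises cohesin, and Sgo1 (-0.65), which protects centromeric cohesion.

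Among spindle pole proteins and partners of Aurka and Plk1, 9 of 11 fell with a median of -0.54, led by Plk4 (-0.78), the kinase of centriole duplication, Hmmr (-0.68) and Nusap1 (-0.64), both microtubule-binding proteins. Of the genes that control the mitotic CDK, 6 of 8 fell with a median of -0.47, with Ccna2 (-0.65), a cyclin, Mastl (-0.63), a kinase that restrains a phosphatase opposing CDK, and Cdc25c (-0.57), an activating phosphatase. Of the transcription factors of G2/M genes, 4 of 10 fell with a median of -0.36, among them Rbl1 (-0.79), a DREAM subunit, Mybl2 (-0.65), which encodes B-Myb, and Foxm1 (-0.48).

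The anaphase promoting complex, which Cdc20 activates, had no gene past the threshold for 4OH-TM in CreER cultures over both times. Of all genes tested, 8.36% were called lower there. Of the 14 tested genes, its subunits, its activator Fzr1, its enzymes and its substrate Pttg1, 0 passed in limma and 2 had an unadjusted p below 0.05, with a median of -0.17. The closest were the ubiquitin-conjugating enzyme Ube2c (-0.29, adjusted p = 0.0668), securin Pttg1 (-0.26, adjusted p = 0.10) and Ube2s (-0.20, adjusted p = 0.22). Whether this list differs from the others or from all genes was not tested. For 60 h against 36 h over the 4 conditions, Ube2c was lower (-0.43, limma adjusted p = 6.14e-06). It was the 1 gene of 14 that passed there.

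**Figure D4:**
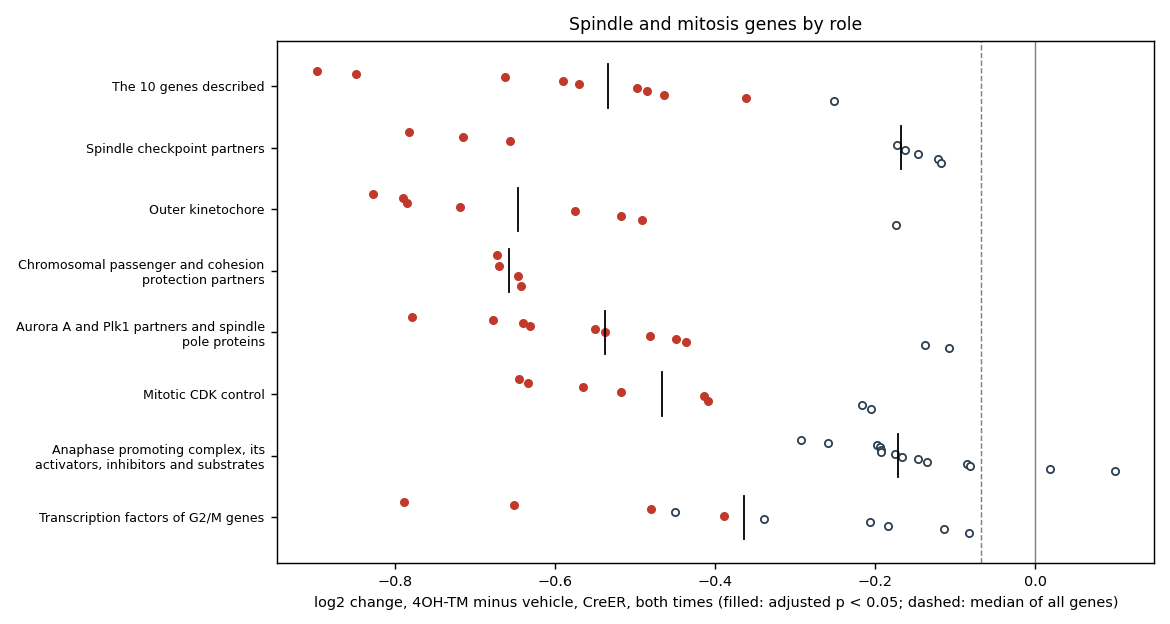
Log2 change, 4OH-TM minus vehicle, over both times in CreER cultures, with 1 point per gene for the 10 genes and 7 lists of related genes; short bars are list medians and the dashed line the median of all genes (-0.07). Filled points passed (adjusted p below 0.05): 9 of 10 genes described here, 7 of 8 outer kinetochore genes and 0 of 14 genes of the anaphase promoting complex list. Of all genes tested, 8.36% were called lower.

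Across the 8 group means, the genes outside the 10 and the lists whose profile was most like the mean of the 10 were Melk (Pearson r = 0.996), Dnmt1 (0.992), Tubb4b (0.988), Eif2s2 (0.987), Rad21 (0.986) and Pclaf (0.986). The 10 genes themselves had r between 0.89 (Aurka) and 0.99 (Mad2l1) with that mean, to which each contributes, and all these points share the same 16 arrays and their brightness. Melk is a kinase of dividing progenitors, Dnmt1 the maintenance DNA methyltransferase, Rad21 a cohesin subunit and Pclaf a partner of the replication clamp. Of the 6, Melk (-0.60), Dnmt1 (-0.47), Rad21 (-0.42) and Pclaf (-0.63) fell under 4OH-TM in CreER cultures over both times, while Eif2s2 (-0.29, limma adjusted p = 0.06) and Tubb4b (-0.19, adjusted p = 0.28) did not pass. The 6 were chosen for their likeness to the 10 in these same arrays. Their direction thus follows from that choice and is no separate evidence.

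The proliferation marker Mki67 measured 749 and 973 in CreER 4OH-TM and 1561 and 1460.0 in CreER vehicle cultures at 60 h, and 1318 and 1455 against 2282 and 2573 at 36 h. Its arrays did not overlap at either time, and it fell by 0.81 ± 0.12 over both times (SE; limma adjusted p = 6.82e-09). Without Cre, Mki67 changed by -0.29 ± 0.12 (adjusted p = 0.9999). Its difference between genotypes, -0.52 ± 0.17, did not pass (adjusted p = 0.0871). Under vehicle, Mki67 was lower in CreER than in no-Cre cultures (-0.49 ± 0.12, adjusted p = 0.000335). Cdkn1a, an inhibitor of cyclin-dependent kinases, measured 3091 and 3520.0 against 1875 and 1249 at 60 h, and 2574 and 2876 against 1441 and 1594 at 36 h, above vehicle at both times. It rose by 0.97 ± 0.12 in CreER cultures (SE; limma adjusted p = 2.17e-13), with a change of 0.03 in no-Cre cultures and a difference between genotypes of 0.93 ± 0.17 (adjusted p = 9.08e-06). The rise started from a lower level: under vehicle, Cdkn1a measured 1540 ± 264 with CreER and 2285 ± 112 without Cre (SD, n = 4 each). That difference was -0.58 ± 0.12 (SE; limma adjusted p = 1.02e-05).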

How the data were processed

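Total RNA of 16 samples was measured with 1 Affymetrix array per sample, and samples were grouped by their titles. The deposited table holds 1 intensity per probe set and array, a positive linear signal, and the submitters' processing notes name MAS5. Its version, scaling target and any genome build are not given in the sources used here, and the replicates were not pooled. Depth is not defined for arrays, and the number of arrays sets the precision.

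Of 22690 probe sets, 64 controls were left out, and 20380 of the rest had 1 gene symbol, 691 several and 1555 none in the platform annotation. The brightest probe set stood for each gene, and the test was limited to genes with a mean log2(signal + 16) at or above 6.07, the 40th percentile (a signal of 51.1). All 16 arrays entered 1 limma fit (limma 3.58.1, R 4.3.3) of 8 group means with a variance trend. Tests were two-sided, at a Benjamini-Hochberg adjusted p of 0.05 over 7619 genes. Counts at an unadjusted p below 0.05 are given without the share of all genes, so no excess over it can be read from them. The residual degrees of freedom were 8 and the prior ones infinite, so each gene's variance followed the shared trend. The p-values of the main fit rest on that shared variance. The fit was also run on simulated data with normal noise at the fitted spread, which cannot test the shared variance.

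The 10 genes, the 7 pathway lists, the cell type markers and the alternatives were chosen with earlier results of these data known. All 10 genes are named in every comparison, as are the 3 genes with the smallest p of each list for 4OH-TM in CreER cultures, the 6 genes most like the 10 in profile, Mki67 and Cdkn1a. Alternatives were other scalings, pseudocounts, filters and probe sets, no variance trend, a replicate block, the actin ratio as a covariate, the spread of 1 genotype alone and each array left out. The replicate numbers did not pair the samples: over 28 pairs of groups the correlation of deviations ran from -0.123 to 0.311.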

Additional observations from a re-analysis of the deposited data

Results flagged for a closer look

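The highest of the 4 CreER vehicle arrays over both times, at 1218 for Plk1, stood far from the other 3, which lay between 897 and 907. These 4 arrays span both times, with 1218 and 907 at 36 h. Chance gives such a gap in about 1 in 20 groups, and 40 groups were examined. The response of Ttk to 4OH-TM differed between genotypes by -0.80 on the log2 scale (CreER minus no Cre, limma interaction adjusted p = 0.00316). The change of Aurka at 60 h against 36 h differed between genotypes by -0.75 (CreER minus no Cre, limma interaction adjusted p = 0.00633), in a comparison added after the data were seen.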

How the results depend on the processing

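All counts are of the 10 genes called lower. The setting called second probe sets was a fit of every probe set, with another spread estimate. It took the second probe set of Bub1, Aurkb, Cdc20 and Tpx2 and the only one of the other genes. In that fit the brightest Bub1 probe set did not pass at 36 h (limma adjusted p = 0.0706, against 0.00407 in the main fit). The brightest Aurkb one did not at 60 h (0.0503, against 0.00169). The lower counts thus do not come from the choice of probe set alone. For the 4OH-TM response of CreER cultures at both times together, the count was 6 to 9 under every alternative except leaving out arrays, where it was 5 to 9, against 9 as reported. Plk1 did not pass under any of these alternatives. The pathway lists had 27 to 39 of 63 genes lower, and 25 to 36 with an array left out, against 33. The comparison at 60 h (8) gave 5 with a pseudocount of 64, with no variance trend, with the replicate block or with the spread of the CreER genotype alone, 4 with no filter, 2 with the second probe sets and 2 to 9 with an array left out. At 36 h (3) it was 9 after quantile normalization, 9 after median scaling, 0 with no filter, 0 with the second probe sets and 0 to 3 with an array left out.

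The difference between genotypes (1) gave 9 after quantile normalization, 9 after median scaling, 3 with the actin covariate, 0 with no filter, 0 with the second probe sets and 1 to 3 with an array left out. The comparison of times over the 4 conditions (10) gave 0 with the actin covariate and 9 to 10 with an array left out. Within CreER 4OH-TM cultures (9) it gave 5 with no filter, 2 with the second probe sets, 4 with the spread of the CreER genotype alone and 1 to 9 with an array left out. Within CreER vehicle cultures (4) it gave 9 after quantile normalization, 9 after median scaling, 2 with the replicate block, 0 with no filter, the second probe sets, the actin covariate or the spread of the CreER genotype alone, and 0 to 6 with an array left out. Within no-Cre 4OH-TM cultures (0) it gave 6 after quantile normalization, 7 after median scaling, 2 with the spread of that genotype alone and 0 to 2 with an array left out, and within no-Cre vehicle cultures (0) it gave 1 after median scaling and 0 to 0 with an array left out. CreER against no Cre under vehicle (1) gave 2 after quantile normalization, 2 with the second probe sets, 0 with the actin covariate and 1 to 2 with an array left out. The genotype difference of the time change (1) gave 8 after quantile normalization, 6 after median scaling, 0 with the actin covariate and 0 to 2 with an array left out. The response of no-Cre cultures and the difference of the CreER responses between times stayed at 0 under the alternatives run, array by array included. With no filter, 164 of 12393 genes were called lower at 60 h and 7 at 36 h under 4OH-TM in CreER cultures. For the genotype difference there were 5. For time there were 42 within CreER 4OH-TM and 11 within CreER vehicle cultures. The replicate block gave 284 of 7619 at 60 h and 46 of 7619 for time in CreER vehicle cultures. Where no number for all genes is given here or above, as with arrays left out, a changed count cannot be set against it.

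In the 4OH-TM response of CreER cultures, its genotype difference and the comparison of times over the 4 conditions, only signs of Plk1 turned under these alternatives. Plk1 passed under none of the settings that turned its sign. Its change at 36 h was 0.077 with the actin covariate and ran from -0.42 to 0.14 with an array left out. It was 0.069 when CreER vehicle 36 h replicate 2 was dropped and 0.14 when CreER 4OH-TM 36 h replicate 1 was. Its genotype difference ran from -0.27 to 0.012, the highest value being reached when CreER 4OH-TM 36 h replicate 1 was dropped, and its change with time was 0.22 with the actin covariate. The third, dimmer Cdc20 probe set was not among these alternatives. It changed by 0.07 under 4OH-TM at 36 h in CreER cultures, against -0.32 for the brightest. Elsewhere the change of Bub1 with time in CreER vehicle cultures was 0.089 with the second probe set, and Bub1b, CreER against no Cre under vehicle, turned and was called higher after quantile normalization. Signs of members that did not pass also turned with the actin covariate for 8 of 10 genes in the time change of no-Cre 4OH-TM cultures, 6 in that of no-Cre vehicle cultures and 4 in CreER against no Cre. In the difference of the CreER responses between times, 5 turned after median scaling and 7 with an array left out. The causes were not tested. Same-numbered samples were not shown to share a batch, and the replicate block moved no other count by more than 1.5 times. With 2 arrays per group, precision is limited by their number.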
